A study of Mus musculus with 8 samples.

Results

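The genes described here make, carry, sense and destroy retinoic acid: Aldh1a1, Aldh1a2, Aldh1a3, Aldh1a7, Rdh10, Rara, Rarb, Rarg, Crabp2 and Cyp26b1. They are 10 of the 37018 genes or unnamed transcripts on the array, and were found as the non-control probes whose systematic name is a RefSeq transcript of 1 of the 10. That gave 12 of 55681 probes, 2 each for Rara and Rarb and 1 for each other gene. In GRCm38.p6 they lie on chromosomes 1 (Rdh10), 3 (Crabp2), 6 (Cyp26b1), 7 (Aldh1a3), 9 (Aldh1a2), 11 (Rara), 14 (Rarb), 15 (Rarg) and 19 (Aldh1a1 and Aldh1a7). The genes were proposed with their KO and WT values known, so those values are given as a description without a test.

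The samples were ureteric bud cells of C57BL/6 mouse kidneys at postnatal day 0, sorted by flow cytometry for GFP. This epithelium branches as the kidney grows and ends up as its collecting duct system. In 4 samples (KO, labelled DOT1-null) the Hoxb7-positive cells lacked Dot1, and 4 were wild type (WT, labelled control). Dot1l encodes a methyltransferase of histone H3. The series design describes the 4 samples of each condition as biological replicates. The Cre line, the GFP transgene and the alleles of the controls are not given in the sources used here. Neither are animals or litters, so errors measure only the spread between these samples. Whether each sample came from its own animal is not known. A sample was labelled with Cy5 and set on its own array, 8 in all, against RNA of WT replicate 3 (WT 3) in Cy3, and the array of WT 3 held that RNA in both dyes. Values below are log2 ratios of Cy5 to Cy3, so that 0 means the level of WT 3 apart from dye effects.

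Retinoic acid is made from vitamin A in a pair of oxidations. Retinol dehydrogenases such as Rdh10 turn retinol into retinaldehyde, and the retinaldehyde dehydrogenases of the Aldh1a family turn that into retinoic acid. The acid binds the nuclear receptors Rara, Rarb and Rarg, which sit on DNA with a retinoid X receptor partner, and enzymes of the Cyp26 family break it down. In the developing kidney Aldh1a2 is known from the stroma and Aldh1a3 from the ureteric bud, and retinoic acid signalling keeps the receptor gene Ret on in the bud.

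Aldh1a1 and Aldh1a7 are paralogs, and no other protein-coding gene lies between them on chromosome 19 in the RefSeq table of GRCm38.p6. The 120 bases before a start of each gene are shown because the array results turn on how differently this pair read. The bases were taken from RefSeq windows of that build, at chr19:20601848-20601967 on the plus strand for Aldh1a1 and chr19:20727557-20727676 on the minus strand for Aldh1a7. Capitals mark the bases that differ between them when they are aligned at the start without gaps.
Aldh1a1: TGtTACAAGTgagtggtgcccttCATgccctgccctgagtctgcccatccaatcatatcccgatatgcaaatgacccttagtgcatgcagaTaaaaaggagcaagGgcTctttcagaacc
Aldh1a7: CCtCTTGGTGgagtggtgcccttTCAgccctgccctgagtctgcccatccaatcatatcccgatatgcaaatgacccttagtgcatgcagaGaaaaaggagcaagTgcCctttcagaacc
Of the 120 bases 105 were identical (87.5%), whereas the other RefSeq start of Aldh1a1 shared 35 bases with Aldh1a7. The tables do not say which start belongs to the probed transcript.

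Rarb is itself a known target of retinoic acid. The next 120 bases lie before its start, at chr14:16575477-16575596 on the minus strand of GRCm38.p6, and are shown because they hold a direct repeat of 2 receptor half-sites, in capitals. A single half-site further upstream, at positions -83 to -78, is left in lower case.
Rarb: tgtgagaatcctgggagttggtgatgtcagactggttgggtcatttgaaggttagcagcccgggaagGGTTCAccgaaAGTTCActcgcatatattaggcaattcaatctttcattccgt
Half-sites were searched as AGGTCA or AGTTCA, and equally as GGGTCA or GGTTCA, on both strands of windows from 250 bases before to 50 after each start. Windows existed for 7 of the 10 genes, 12 in all, and 6 of the 12 held at least 1 half-site, against 43.7% of all 32851 windows. In the printed sequences of Aldh1a1 and Aldh1a7 it lies at -49 to -44, on the opposite strand. A direct repeat of half-sites with a gap of 5 bases, the classical spacing of a retinoic acid response element, was found in the Rarb window at positions -53 to -37 and in 0.0974% of all windows. Direct repeats with a gap of 1 or 2 were in 0 of the 12 windows, against 0.222% and 0.268% of all windows. A match is only a description of the sequence.

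All 12 probes were well above background in both dyes on all 8 arrays, and none was saturated. Because all arrays share the WT 3 RNA in Cy3, the Cy3 signal shows the technical spread. Its highest value over the 8 arrays was between 1.15 and 1.84 times its lowest. The 1.84 was at the dimmer probe of Rarb, which had 1.20 without KO 3. Without that array the highest of any probe was 1.38, at the dimmer probe of Rara. On the array of WT 3 against itself the 12 probes read between -0.53 (Aldh1a3) and 0.55 (Cyp26b1), a probe-specific dye effect that cancels between groups as far as it is constant. Levels of different probes are therefore not compared.

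Some arrays stood apart. The median Cy5 signal over all spots was 122, 137, 636 and 126 on KO 1 to KO 4, against 107.5, 95, 99 and 93.5 on WT 1 to WT 4, and the groups did not overlap (exact permutation test, 2-sided, p = 0.0286, n = 4 per group). KO 3 was the brightest, with Cy5 well above background on 95.2% of probes' spots against 59.1% to 68.9% on the other KO arrays and 52.4% to 56.2% on the WT arrays. KO 2 lay among the WT arrays on the first principal component of all genes, at 19.89 against 18.40 to 25.72 in WT, with KO 1, KO 3 and KO 4 between -50.21 and -24.16. Dot1l had a log2 ratio of 0.16 ± 0.19 in KO and -0.02 ± 0.08 in WT (SD, n = 4 each; limma adjusted p = 0.342), and whether its probe lies in the deleted part is not given, so it does not check the labels. The single slide had a row for KO and a row for WT, so a row effect and a genotype effect cannot be told apart. Of 15 markers of the ureteric bud, 15 were well above background on all arrays, Hoxb7, Gata3 and Cdh1 included. In KO minus WT 10 of them were below 0 and 5 above, and the list mean differed by -0.13 (exact permutation test, 2-sided, p = 0.0571, n = 4 per group; 0.229 adjusted over 8 lists). That mean joined differences from -0.82 (Wnt11) to 0.79 (Krt18). Hoxb7 had -0.71 ± 0.083 (SE; limma adjusted p = 0.0570), Gata3 -0.23 ± 0.12 and Cdh1 0.21 ± 0.11. Markers of stroma (14 of 14), nephron progenitors (8 of 8), urothelium (8 of 8), nephron tubule and podocytes (10 of 10), endothelium (7 of 7) and erythroid cells (3 of 5) were measured too. Those below 0 numbered 13 for stroma, 7 for nephron progenitors, 1 for urothelium, 6 for tubule and podocytes, 2 for endothelium and 1 for erythroid cells, with list p-values of 0.371 to 0.943 by the same exact permutation test. Leukocyte markers had list means of -0.81 to -0.42 in KO and -0.34 to 0.15 in WT, with 7 of 7 below 0 (exact permutation test, 2-sided, p = 0.0286, the smallest possible with n = 4 per group; 0.229 adjusted over 8 lists), and their part in the values below was not tested. In these sorted pools fewer cells of a type and less RNA per cell cannot be told apart.

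Among the enzymes that make retinoic acid, Aldh1a1 stood out, with higher ratios on all 4 KO arrays. Aldh1a1 (NM_013467) encodes a cytosolic retinaldehyde dehydrogenase. It read 2.30, 2.17, 1.26 and 1.75 on KO 1 to KO 4, against 0.33, -0.0040, 0.30 and 0.095 on WT 1 to WT 4. The lowest KO array was thus well above the highest WT array, and KO 2, which lay among the WT arrays over all genes, was the second highest. The means were 1.87 ± 0.47 in KO and 0.18 ± 0.16 in WT (SD, n = 4 each), a log2 difference of 1.69 ± 0.21 (SE), or 3.23-fold higher in KO. Of 23343 genes tested, 1.31% were at least 2-fold higher in KO, and 1 of the 10 genes here was, while 1.5% were 2-fold apart in either direction.

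The groups were also apart in the scanner signal before normalisation, where Cy5 was brighter on the KO arrays over all spots too. After subtraction of local background the Cy5 signal of Aldh1a1 was 13786 to 24885 on the KO arrays and 3846 to 6867 on the WT arrays. Its Cy3 signal, from 1 RNA, stayed between 958 and 1122. Over 21 alternative settings the log2 difference lay between 1.22 (median centring) and 1.89 (without KO 3), and it was 1.59 without KO 2. Centring each array on its median in place of loess shifted all genes by a median of -0.30, and quantile-normalised Cy5 without Cy3 by -0.17. Relative to those shifts Aldh1a1 had 1.52 and 1.81.

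Aldh1a7 (NM_011921), whose promoter is printed beside that of Aldh1a1, did not share this pattern. Its enzyme is close in sequence to that of Aldh1a1 and is poorly active on retinaldehyde. It read 0.37, 1.07, 0.36 and 0.38 on KO 1 to KO 4, against 1.28, 0.68, -0.0076 and 0.91 on WT 1 to WT 4. The groups overlapped fully and the WT arrays alone spanned the whole range. The means were 0.55 ± 0.35 in KO and 0.72 ± 0.54 in WT (SD, n = 4 each), a difference of -0.17 ± 0.26 (SE). Leaving out 1 array gave between -0.41 (without WT 3) and 0.016 (without WT 1), and -0.35 without KO 2. The mean ratio of 8 urothelium markers was 0.67, 1.33, 1.21 and 0.97 on KO 1 to KO 4, against 1.77, -0.0014, 0.25 and 1.23 on WT 1 to WT 4. WT 1 was the highest array and KO 2 the next for both, a pairing that, like those with stroma and endothelium below, was chosen after the values were seen. Stroma and smooth muscle markers had the same order at the top, with 1.11 on WT 1 and 1.09 on KO 2. The part of either list in the spread of Aldh1a7 was not tested. Whether the probes of the paralogs bind each other's RNA was not tested either, since their sequences are not used here.

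**Figure D1:**
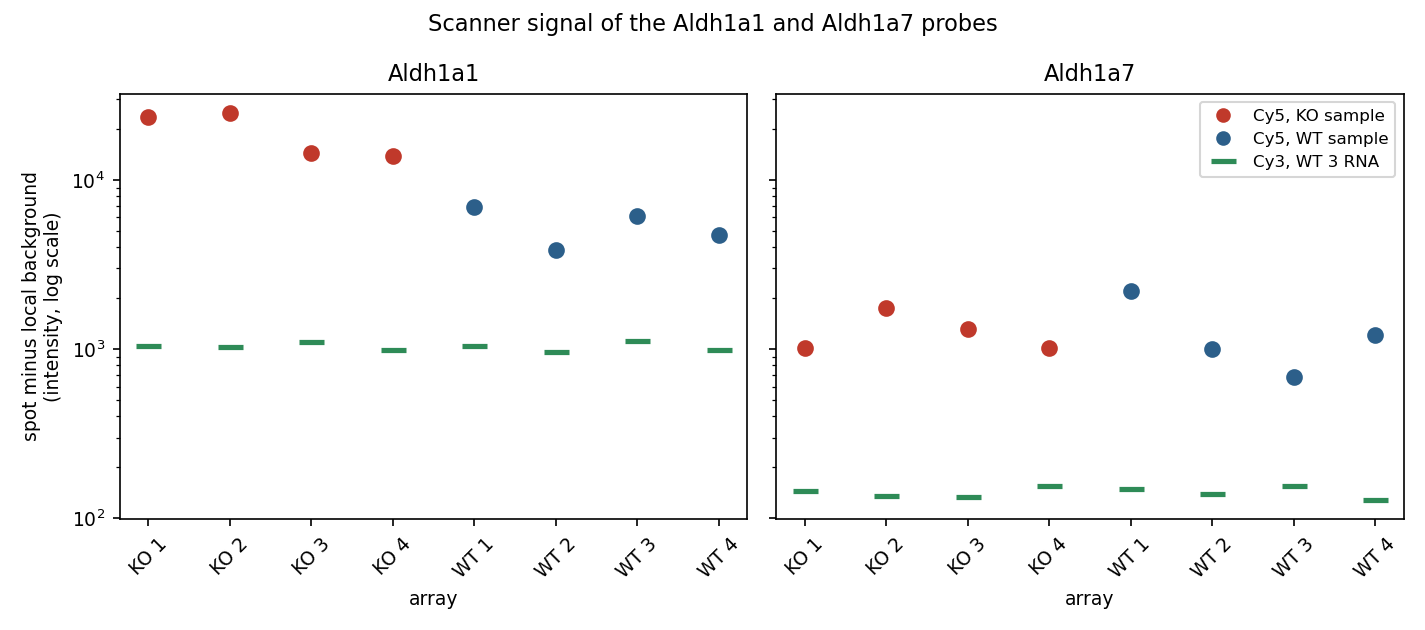
Spot signal minus local background (intensity, log axis) of the Aldh1a1 and Aldh1a7 probes on each array, with Cy5 of KO samples as red points, Cy5 of WT samples as blue points and Cy3 of WT 3 RNA as green bars. The 4 KO points of Aldh1a1 lie between 13786 and 24885, above all WT points, while KO and WT points of Aldh1a7 overlap.

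Aldh1a3 (NM_053080) makes retinoic acid in bud epithelium and was higher by a smaller step on the 3 KO arrays with a value. Its ratio was 0.19, -0.16 and -0.14 on KO 1, KO 2 and KO 4, against -0.36, -0.24, -0.53 and -0.54 on WT 1 to WT 4. The spot of KO 3 was flagged by the scanner software and left out. Its Cy5 signal of 4909 over background lay within the WT range of 3781 to 5438. The array of KO 3 had 8392 flagged spots, against 363 to 448 on the other arrays. The 3 KO values lay above all WT values, the nearest pair being -0.16 on KO 2 and -0.24 on WT 2. The means were -0.037 ± 0.20 in KO (SD, n = 3) and -0.42 ± 0.15 in WT (SD, n = 4), a difference of 0.38 ± 0.13 (SE), or 1.30-fold. It stayed above 0 in all 21 settings, from 0.11 (median centring) to 0.44. The KO 3 spot was left out of every setting, so they do not show what it would change.

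Aldh1a2 (NM_009022), the main retinoic acid enzyme of the embryo, did not separate the groups. It read -0.28, 0.68, 0.33 and 0.61 on KO 1 to KO 4, against 0.63, 0.80, 0.36 and 0.32 on WT 1 to WT 4. KO 1 alone lay below the WT arrays. The difference was -0.19 ± 0.21 (SE), and 0.011 without KO 1. Stroma and smooth muscle markers also had their lowest mean on KO 1, at -0.075, with 1.09, 0.15 and 0.57 on KO 2 to KO 4 and 0.11 to 1.11 on the WT arrays. Of their 14 genes 13 were below 0 in KO minus WT (exact permutation test of the list mean, 2-sided, p = 0.371, n = 4 per group; 0.800 adjusted over 8 lists). KO 1 was also the lowest array for nephron progenitor markers (-0.18) and for tubule and podocyte markers (-0.65). The part of these lists in the Aldh1a2 ratio was not tested.

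Rdh10 (NM_133832), which carries out the first oxidation, had nearly equal means in both groups. It had -0.20, -0.0050, -0.41 and 0.017 on KO 1 to KO 4, against -0.15, -0.038, -0.089 and -0.33 on WT 1 to WT 4. The means were -0.15 ± 0.20 in KO and -0.15 ± 0.13 in WT (SD, n = 4 each). The difference was 0.00054 ± 0.12 (SE), and its sign changed in 5 of 21 settings.

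The carrier gene Crabp2 (NM_007759) encodes the protein that takes retinoic acid to its receptors in the nucleus. It read 0.65, 0.66, 0.24 and 0.58 on KO 1 to KO 4, against 0.27, 0.35, 0.0056 and 0.15 on WT 1 to WT 4. KO 1, KO 2 and KO 4 lay above every WT array, and KO 3 lay among them. The means were 0.53 ± 0.20 in KO and 0.20 ± 0.15 in WT (SD, n = 4 each), a difference of 0.34 ± 0.12 (SE), or 1.26-fold. It was 0.44 without KO 3 and -0.054 with median centring, which is 0.24 above the median of all genes under that setting.

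The 3 receptor genes had differences below 0 in all 21 settings. Relative to the median of all genes, Rara, Rarb and Rarg had -0.32, -0.37 and -0.30 with median centring. With Cy5 alone they had -0.046, -0.40 and -0.049, so Rara and Rarg then lay close to that median. Rara (NM_001177302) was read by 2 probes that differed. Its brighter probe had -0.39, -0.36, -0.30 and -0.54 on KO 1 to KO 4, against -0.34, -0.19, -0.19 and -0.37 on WT 1 to WT 4, a difference of -0.13 ± 0.088 (SE) with overlapping groups, and -0.080 without KO 4. Its dimmer probe had -0.52, -0.27, -0.86 and -0.33 on KO 1 to KO 4, against -0.013, -0.19, -0.032 and 0.14 on WT 1 to WT 4. There every KO array was below every WT array, with a difference of -0.47 ± 0.14 (SE), so the probe decides whether the groups of this receptor overlap. The nearest pair was -0.27 on KO 2 and -0.19 on WT 2, and the bright array KO 3 was the lowest.

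Rarb (NM_011243), the receptor gene whose start region holds the direct repeat printed above, overlapped at both of its probes. The brighter probe had 0.00021, -0.047, -0.43 and -0.13 on KO 1 to KO 4, against -0.012, 0.23, -0.0021 and 0.52 on WT 1 to WT 4. The dimmer probe had -0.050, 0.28, -0.089 and 0.023 on KO 1 to KO 4, against -0.14, 0.36, 0.19 and 0.65 on WT 1 to WT 4. The log2 differences were -0.33 ± 0.14 and -0.22 ± 0.16 (SE), and at both probes WT 4 was the highest array. Without WT 4 the brighter probe had -0.22.

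Rarg (NM_011244), the third receptor, read 0.12, 0.25, 0.26 and 0.18 on KO 1 to KO 4, against 0.38, 0.31, 0.20 and 0.69 on WT 1 to WT 4. KO arrays were tightly grouped and WT 3 lay among them, with WT 4 again the highest. The difference was -0.19 ± 0.11 (SE), and -0.091 without WT 4.

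Cyp26b1 (NM_175475), which clears retinoic acid, had the most negative difference of the 10 genes, with 1 WT array far above the rest. It read 0.57, 0.58, 0.34 and 0.30 on KO 1 to KO 4, against 0.70, 0.92, 0.55 and 1.88 on WT 1 to WT 4. KO 3 and KO 4 lay below all WT arrays, KO 1 and KO 2 just above WT 3, and WT 4 far above the rest. The means were 0.45 ± 0.15 in KO and 1.01 ± 0.60 in WT (SD, n = 4 each), a difference of -0.57 ± 0.25 (SE) that was -0.28 without WT 4. The mean ratio of the 7 endothelial markers was 0.31, 0.67, 0.45 and 0.25 on KO 1 to KO 4, against -0.050, -0.086, 0.29 and 1.32 on WT 1 to WT 4, so that WT 4 was the highest here too. Their part in the Cyp26b1 ratio was not tested.

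**Figure D2:**
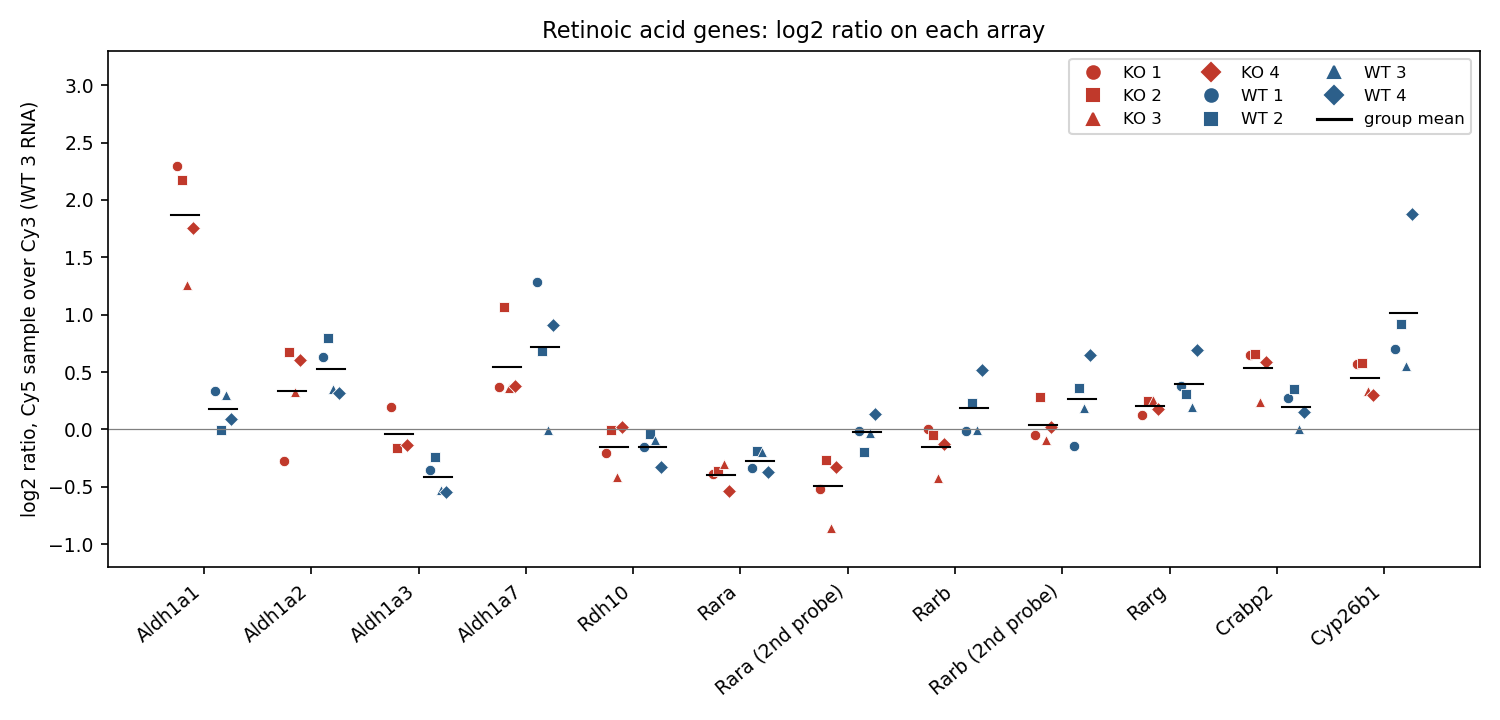
Log2 ratio of Cy5 (the sample) to Cy3 (WT 3 RNA) for each of the 12 probes, with KO arrays in red left of WT arrays in blue, marker shapes for replicate numbers and black bars for group means. Aldh1a1 has its KO points between 1.26 and 2.30, above all WT points, and the WT 4 point of Cyp26b1 stands at 1.88.

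Over the 10 genes, each by its brighter probe, 4 differences were above 0 and 6 below, with a median of -0.15, against -0.022 for all 23343 genes tested, of which 45.9% were above 0. The groups separated fully for 2 of the 10, Aldh1a1 on 4 KO arrays and Aldh1a3 on 3, both higher in KO. Of all genes tested 11.8% separated so, 4.22% with KO higher and 7.62% with KO lower. These shares are printed as background and nothing is read from them, since the genes were chosen on this contrast.

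**Figure D3:**
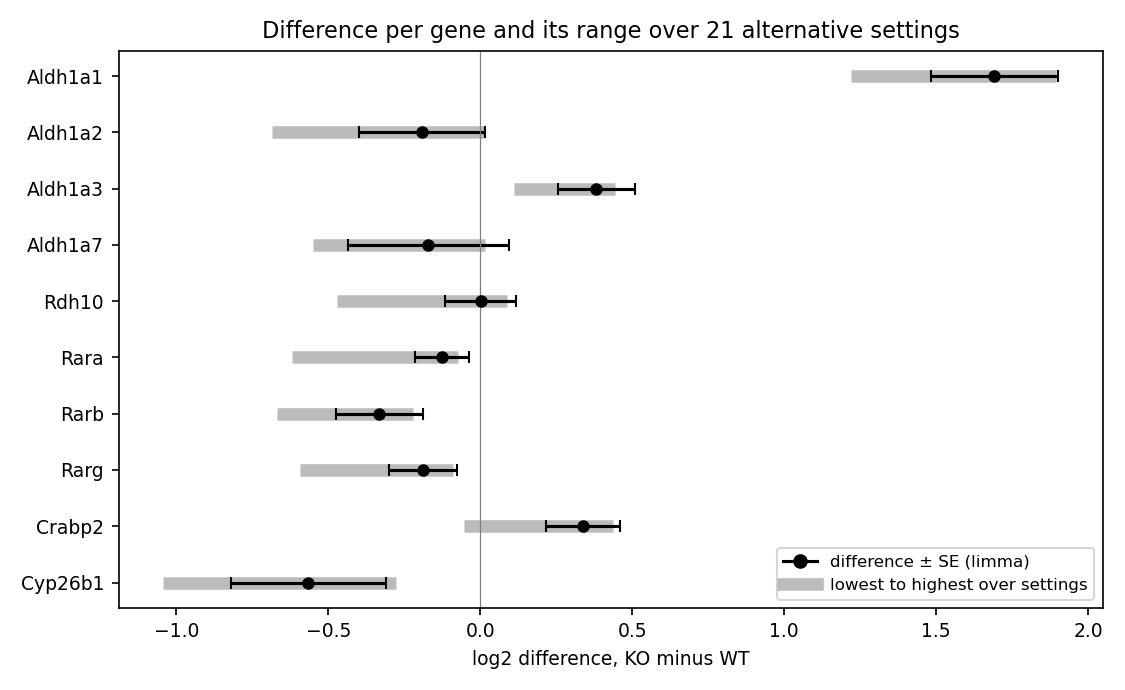
Log2 difference KO minus WT per gene (black points, bars ± SE from limma) with the lowest and highest value over 21 alternative settings in grey. Aldh1a1 ranges from 1.22 to 1.89, while the ranges of Aldh1a2, Aldh1a7, Rdh10 and Crabp2 include 0.

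Across the 8 arrays, 3 genes varied most: Aldh1a1 over a range of 2.30, Cyp26b1 over 1.58 and Aldh1a7 over 1.29 on the log2 scale. Among 13364 other named genes with complete values, those with the highest Pearson correlation to Aldh1a1 over the 8 arrays were Pla2g5 (0.986), a secreted phospholipase gene, Adra2c (0.979), an adrenergic receptor gene, and Kit (0.977), a receptor kinase gene. Their log2 differences were 0.70, 1.04 and 0.60. For Cyp26b1 they were Cdc42ep1 (0.961), Myct1 (0.955) and Apbb2 (0.953), and for Aldh1a7 they were Oit1 (0.967), Fxyd3 (0.964) and Ankrd46 (0.953). Such correlations hold the group difference and shared array effects, and they are given as a description.

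The other genes of the pathway were taken from 5 lists of 75 genes, of which 62 were measured. None of the 62 rose or fell by limma's adjusted p, and 11 had an unadjusted p under 0.05. Over all genes tested 0.00857% passed the adjusted threshold and 24.1% had an unadjusted p under 0.05, so 11 of 62 was no larger a share. Without KO 2, limma called 3 of the 62 higher and 5 lower, where 10.3% and 11.6% of all genes were called. KO 2 lay among the WT arrays over all genes, and leaving out any other single array called 0 of the 62. The adjusted p-values without KO 2 below are therefore a description and not support for a gene. The groups separated fully for 2 of the 62 with KO higher and 3 with KO lower, against 4.22% and 7.62% of all genes tested. The genes named below are those with the smallest p of each list, which favours separation of the groups. Median centring, under which the median of all genes was -0.30, took Nr2f1 to -0.76, Cyp26a1 to -0.74, Zfp423 to -0.69, Meis2 to -0.81 and Ret to -0.87.

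Vitamin A uptake and transport had 3 of 11 measured genes above 0, 8 below and a median of -0.22. Stra6 (NM_001162476), the cell surface receptor that takes up retinol from its plasma carrier, had the largest difference. It read -0.23, 0.23, -0.83 and -0.98 on KO 1 to KO 4, against 1.13, 0.82, 0.49 and 0.59 on WT 1 to WT 4. Every KO array was below every WT array, and KO 2 was the closest to WT. The difference was -1.21 ± 0.26 (SE; limma adjusted p = 0.106), and without KO 2 it was -1.43 (limma adjusted p = 0.00345). It passed the threshold in 2 of 21 settings, without KO 2 and with array weights.

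Stra6l, a related retinol transporter gene, had a difference of 0.45 ± 0.14 (SE; limma adjusted p = 0.124) with overlapping groups, and between 0.23 (Cy5 alone) and 1.06 (scanner log ratio) over the settings. Rbp3, a retinoid-binding protein gene best known from the retina, had -0.30 ± 0.12 (SE), and -0.18 without KO 3. Its groups did not overlap, but only just, with 0.52 on KO 4 against 0.53 on WT 2. Ttr, which encodes the plasma partner of the retinol carrier, had -1.01 ± 0.46 (SE), with KO 1 at -1.81 and the other KO arrays between -0.17 and 0.50, against -0.11 to 1.20 in WT. Without KO 1 the difference was -0.54.

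Of the retinol and retinaldehyde enzymes 7 of 16 measured genes were above 0 and 9 below, with a median of -0.039. Dhrs7, a short-chain dehydrogenase gene, read 0.80, 0.83, 0.24 and 0.22 on KO 1 to KO 4, against -0.045, -0.19, -0.52 and -0.064 on WT 1 to WT 4. The groups did not overlap, with a difference of 0.73 ± 0.17 (SE; limma adjusted p = 0.112), or 0.63 without KO 2 (limma adjusted p = 0.0329) and 0.33 with median centring. Dhrs4, a dehydrogenase that can act on retinaldehyde, read -0.19, -0.040, -0.38 and -0.34 on KO 1 to KO 4, against 0.032, 0.15, 0.16 and 0.20 on WT 1 to WT 4. It did not overlap either, with -0.37 ± 0.10 (SE; limma adjusted p = 0.112), or -0.44 without KO 2 (limma adjusted p = 0.0108).

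Adh1, a cytosolic alcohol dehydrogenase that can oxidise retinol, read 1.05, 1.68, 1.49 and 1.38 on KO 1 to KO 4, against 1.23, 0.34, 0.50 and 0.90 on WT 1 to WT 4. The groups overlapped through KO 1 and WT 1, and the difference was 0.66 ± 0.20 (SE; limma adjusted p = 0.123), or 0.16 with median centring. Aldh8a1, a dehydrogenase gene whose enzyme acts on retinaldehyde isomers, had -0.30 ± 0.12 (SE; limma adjusted p = 0.186, and 0.0324 without KO 2).

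Receptor partners and cofactors had 6 of 11 genes above 0 and a median of 0.084. Ncoa2, a coactivator of nuclear receptors, read 0.066, -0.061, -0.022 and 0.0060 on KO 1 to KO 4, against -0.36, -0.33, -0.34 and -0.40 on WT 1 to WT 4. Both groups were tight and did not overlap, with a difference of 0.35 ± 0.074 (SE; limma adjusted p = 0.105), or 0.37 without KO 2 (limma adjusted p = 0.0116). It was 0.059 with median centring and 0.064 with Cy5 alone. Nr2f1, an orphan receptor, had -0.32 ± 0.12 (SE) and -0.12 at its other tested probe. Nrip1, a ligand-dependent corepressor, had 0.23 ± 0.10 (SE), and the receptor partner Rxrg -0.14 ± 0.088 (SE) and 0.01 at its other tested probe. With median centring Nrip1 had -0.18.

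Of the other Cyp26 genes Cyp26a1, itself a known retinoic acid target, was measured. It read -0.58, -0.80, -0.76 and -0.77 on KO 1 to KO 4, against -0.46, -0.13, -0.0012 and -0.64 on WT 1 to WT 4. KO 1 overlapped with WT 4, and the difference was -0.42 ± 0.14 (SE; limma adjusted p = 0.135). Cyp2s1, a cytochrome P450 gene, had 0.19 ± 0.19 (SE), -0.28 with median centring, and 0.076 to 0.36 when 1 array was left out.

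Genes known to respond to retinoic acid had 9 of 22 measured members above 0, 13 below and a median of -0.081. None of the 22 separated the groups fully, where 11.8% of all genes tested did. That count leaves out genes counted elsewhere, such as Rarb and Cyp26a1, whose groups overlapped, and Stra6, whose groups did not. Zfp423, a zinc finger cofactor of the receptors, had a difference of -0.39 ± 0.14 (SE; limma adjusted p = 0.151), with -0.26 and -0.35 at its other tested probes and -0.47 without KO 2 (limma adjusted p = 0.0378). Meis2, a homeobox gene, had -0.44 ± 0.25 (SE; limma adjusted p = 0.304), and -0.66 without KO 2 (limma adjusted p = 0.0383), an array on which it read 1.03. Hoxb4, a homeobox gene of the Hoxb cluster, had 0.23 ± 0.16 (SE; limma adjusted p = 0.390) and 0.39 without KO 2 (limma adjusted p = 0.0191). It had 0.12 without KO 1 and -0.24 with median centring. Zfp423, Meis2 and Hoxb4 each passed the threshold in 1 of 21 settings, the one without KO 2.

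Ret, the receptor of the branching signal GDNF, read 0.0035, -0.30, -1.11 and -0.77 on KO 1 to KO 4, against 0.47, -0.12, -0.22 and -0.37 on WT 1 to WT 4. The groups overlapped, with KO 1 above WT 2, WT 3 and WT 4. The difference was -0.48 ± 0.25 (SE; limma adjusted p = 0.275), and it was -0.29 without KO 3 and -0.30 without WT 1.

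**Figure D4:**
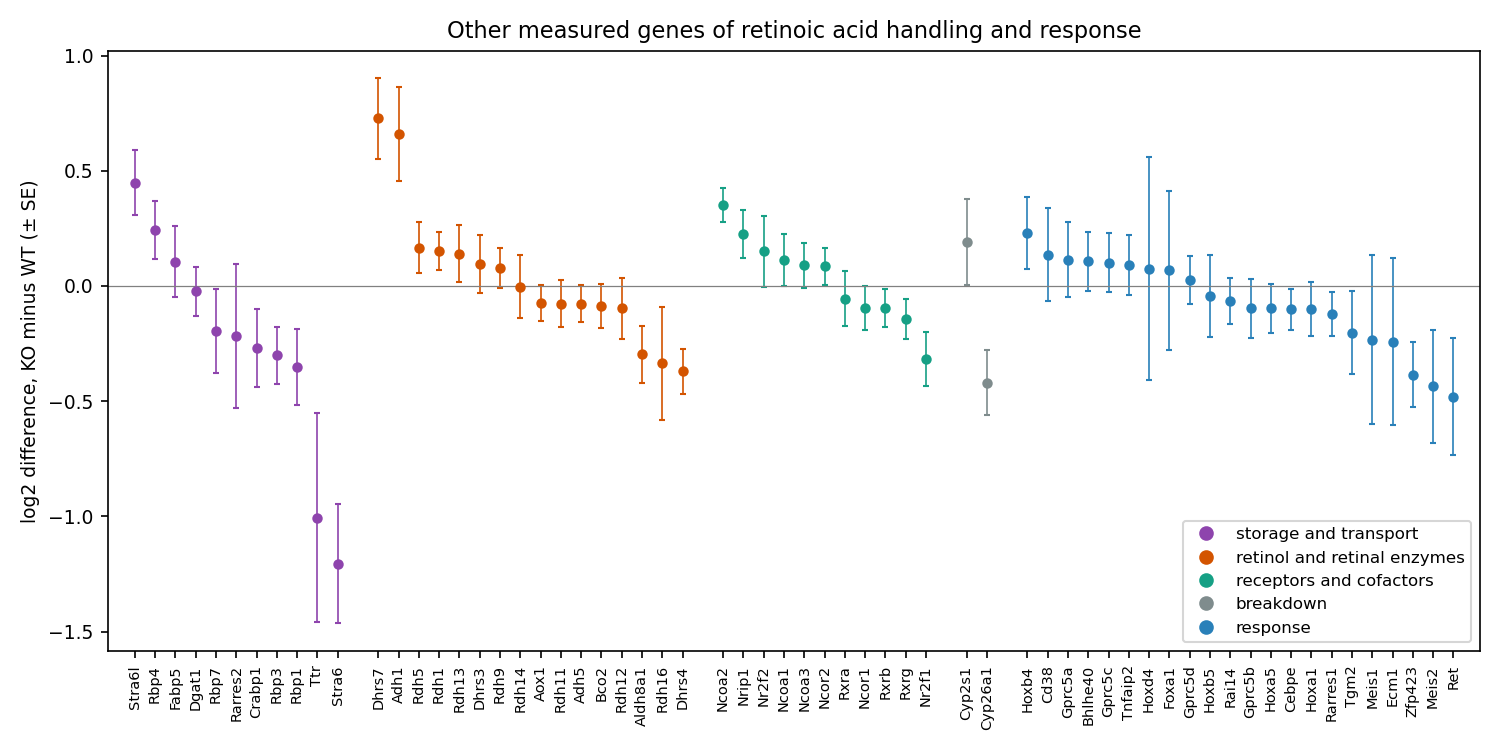
Log2 difference KO minus WT (points, bars ± SE from limma) of the 62 measured genes of the 5 pathway lists, coloured by list and ordered within each. Stra6 is lowest at -1.21 and Dhrs7 highest at 0.73, and no gene passed the adjusted threshold.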

How the data were processed

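The deposited scanner files hold intensity per spot, which the submitters' processing notes credit to Agilent Feature Extraction 10.7.3.1, and a log10 ratio of Cy5 over Cy3 that the authors' software had background-subtracted and dye-normalised, per the file headers. The deposited series table holds the same log10 ratios (r of at least 0.999999), with medians of 0 on 7 arrays and 0.0152 on KO 3. The planned mean signals are not among the columns, so median signals took their place. In R 4.3.3, limma 3.58.1 corrected them by normexp (offset 50) and gave log2 ratios after within-array loess in which control spots had weight 0. Flagged spots were left out and spots of a probe averaged. Tested probes had Cy5 well above background on at least 4 arrays and at least 3 values per group, and the brightest probe stood for a gene. Of 37850 names 21717 matched RefSeq (GRCm38.p6). The 2-sided comparison of KO with WT used lmFit and eBayes, and p-values were adjusted by Benjamini-Hochberg over 23343 genes, with 0.05 as threshold. The fitting step was tested on simulated data drawn with the spread of WT and no array effects, which checks the code and not these arrays. The genes and lists were chosen with earlier results of these data known. Named are the 10 genes, Dot1l, the 4 pathway genes of each list with the smallest p, and the 3 most correlated genes for each of the 3 most variable genes. Hoxb7, Gata3, Cdh1, Wnt11 and Krt18 were named after their values were seen. Replicate numbers are shared by KO and WT, and the deviations of same-numbered arrays correlated between -0.24 and 0.11. The main fit did not use the numbers as pairs. These correlations cannot exclude that same-numbered samples shared a litter or a sort. The number of arrays limits the precision.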

Additional observations from a re-analysis of the deposited data

Results flagged for a closer look

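In 1 of the 23 groups of 4 arrays examined over the 12 probes, a single array stood far from the others of its group. Aldh1a7 read 1.07 on KO 2, against 0.36 to 0.38 on the other KO arrays. The gap between KO 2 and the nearest KO array was 0.97 of the range of the 4 KO arrays. About 1 group in 20 is expected to pass the cutoff for flagging by chance. The gap seen here was larger than that cutoff, and how often chance gives a gap of this size was not worked out.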

How the results depend on the processing

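Aldh1a1 and Aldh1a3 stayed above 0, and Rara, Rarb, Rarg and Cyp26b1 below 0, in all 21 alternatives, while Aldh1a2, Aldh1a7, Rdh10 and Crabp2 changed sign in 1, 1, 5 and 1 of them. All alternatives left out the flagged KO 3 spot of Aldh1a3. The median difference of the 10 genes was -0.15, and -0.54 with median centring, under which the median of all genes was -0.30. Leaving out 1 array gave between -0.18 (without WT 3) and -0.051 (without KO 1), with -0.074 without WT 1 and between -0.10 and -0.099 without KO 4, WT 2 or WT 4. The count of genes called over all genes, 2 here, was 1 with a normexp offset of 0, without background subtraction and with the mean over probes, and 0 with median centring, Cy5 alone or the replicate number as a block. It was 5 with scaling between arrays, 4 without the filter, 11 with an intensity trend, and 4542 with array weights. Leaving out 1 array gave between 1 and 4931, the highest without KO 2, and 8 without KO 3. Without KO 2 and KO 3, chosen after seeing the data, it was 5465. Of the 62 other pathway genes, 0 called here, limma called 6 with array weights and 8 without KO 2 and KO 3, and leaving out 1 array gave between 0 and 8. The replicate block called 0 of them. Dot1l had 0.34 without KO 2 and KO 3 (limma adjusted p = 0.0299) and passed in none of the other alternatives. The cause of these changes was not tested.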
